A study of Mus musculus with 12 samples.

Results

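The genes described here encode the proteins of the cytosolic ribosome in mouse embryonic fibroblasts. They are all genes on the array whose symbol starts with Rpl or Rps and a digit, together with Rpsa, Rplp0, Rplp1 and Rplp2, without the Rps6k kinases and without pseudogenes. The rule found 87 genes with 175 probes, of 39429 probes on the array. 85 of them, with 171 probes, entered the tests among 19507 genes or transcripts. The other two were Rpl3l, a muscle paralog of Rpl3 that was above background on 0 of 12 arrays, and Rpl10l, a paralog of Rpl10 used in the testis, whose better probe was above background on 1 array. Of the 85 genes, 42 encode proteins of the large (60S) subunit, 31 proteins of the small (40S) subunit and 3 proteins of the P stalk. A further 8 are paralogs or retroposed copies, and the last is Rps19bp1, a nucleolar protein that binds RPS19 and is not part of the ribosome.

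The study profiled fibroblasts prepared from wild-type (WT) embryos and from embryos of mice lacking Itpr2 (KO), all taken at E12.5. The product of Itpr2 is an inositol trisphosphate receptor, through which the endoplasmic reticulum releases calcium. RNA was taken from cultures after 3 passages (early) or 5 passages (late), and each of the 4 groups had 3 one-colour arrays, 1 on each of 3 slides. The comparisons ask how the genotypes differ at each passage and how each genotype changes with passage. The sources used here name neither the mouse strain nor the deleted part of Itpr2. The series' design text speaks of fibroblasts from 3 independent WT or KO animals, without saying which early and late cultures share an embryo.

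The share of probes well above background was 59.2% to 67.5% by array, 0 spots were saturated, and all 10 fibroblast markers (Col1a1, Vim and others) were above background on all 12 arrays. The Itpr2 probe had log2 levels of 0.66 to 1.23 on the WT early, 1.12 to 1.58 on the KO early, 1.53 to 1.74 on the WT late and 1.72 to 1.83 on the KO late arrays. It was not lower in KO, and since its place relative to the deletion is not given, it does not check the labels. Xist, which coats the inactive X chromosome in female cells, was above background on WT early replicate 1, WT late replicate 1 and KO late replicates 1 and 2. KO early replicates 1 and 2 lacked it, so numbers 1 and 2 do not stand for the same embryo in the early and late KO cultures. Replicate 3 lacked it in both, which leaves that number unsettled. All 11 macrophage markers were also above background on all 12 arrays. Of markers of other cells, 4 of 5 for cartilage, 1 of 6 for epithelium, 2 of 5 for endothelium, 1 of 5 for liver and 1 of 4 for muscle were above background on all 12 arrays. Those above background on 0 arrays were Cdh1 and Krt8 (epithelium), Cdh5 and Tie1 (endothelium), Alb, Apoa1 and Ttr (liver) and Myod1 and Myog (muscle).

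A ribosome is assembled in the nucleolus from ribosomal RNA and about equal amounts of each ribosomal protein, so its protein genes are usually transcribed and translated together. Their messages begin with a C and a run of pyrimidines, the 5′ terminal oligopyrimidine (TOP) motif, through which growth signals acting by the kinase mTOR and the RNA-binding protein LARP1 control their translation. Growing fibroblasts express them among their most abundant messages. Paralogs such as Rps27l or Rpl22l1 encode near copies that can replace the usual protein, and several free ribosomal proteins bind MDM2 and so bear on p53.

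The RefSeq promoter table (build GRCm38.p6) held 76 transcription starts for 65 of the 85 genes, of 32851 starts for 27025 genes in all. At 14 of the member starts (18.4%), each in a different gene, the first transcribed base was a C followed by at least 4 pyrimidines on the coding strand, against 2.51% of all starts. The windows of 30 bases below run from 10 bases before the start to 20 bases from it on, 5′ to 3′ on the coding strand, and the capitals mark the pyrimidine run. The first 5 show the run at starts of typical subunit genes, and Rps27 with its paralog Rps27l shows a pair that differs in it.

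Rps6 (chr4:86857348-86857377, minus strand): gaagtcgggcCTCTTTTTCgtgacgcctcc
Rpl35 (chr2:39005112-39005141, minus strand): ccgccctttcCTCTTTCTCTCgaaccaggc
Rpl35a (chr16:33056472-33056501, plus strand): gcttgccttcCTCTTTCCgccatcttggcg
Rplp2 (chr7:141447641-141447670, plus strand): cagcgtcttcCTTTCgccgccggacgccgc
Rps15a (chr7:118116128-118116157, minus strand): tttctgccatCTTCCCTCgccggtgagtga
Rps27 (chr3:90213629-90213658, minus strand): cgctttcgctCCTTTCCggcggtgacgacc
Rps27l (chr9:66946076-66946105, plus strand): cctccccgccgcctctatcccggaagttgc

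Rpl35a has other starts in the table without the run, and Rps27l has a further start that also begins with a G. A start placed a few bases away from the base most often used would miss the run, so the 18.4% describes the annotation. In the whole window of 250 bases before to 50 bases after the start, searched on both strands, CCGGAAG, the core bound by ETS factors such as GABP, was at 34.2% of member starts and 8.86% of all starts. GATGGCG, part of the YY1 motif, was at 10.5% and 3.49%. TATAAA, the TATA box, was at 10.5% of member starts and 13.6% of all starts. The 14 genes with the run had a median log2 difference between late and early passage of -0.20 in WT and -0.23 in KO, and the 51 genes with a listed start but no run had -0.20 and -0.18.

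Levels are log2 signal over the array's own 75th percentile. The probes of the 76 subunit genes were among the brightest of the array, with mean log2 levels between 5.11 and 8.08, and 28 of the 100 and 42 of the 200 brightest genes were members. A probe's brightness also depends on its own sequence, so these levels do not rank the genes by message. The brightest spot of a member read 215774 units, 27.8% of the saturation value. The median SD of a member over the 12 arrays was 0.15, against 0.24 for all genes, and the median SD within a group was 0.10 against 0.19.

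The members moved together from array to array. Over the 12 arrays the 2850 pairs of subunit genes had a median correlation of 0.80, which became -0.01 once the median of the 76 genes was taken off each array. These points share the array and its scaling. The median deviation from each gene's own mean was 0.01, 0.03 and 0.11 on WT early replicates 1 to 3, and 0.30, 0.08 and 0.07 on KO early replicates 1 to 3. It was -0.13, -0.09 and -0.23 on WT late replicates 1 to 3 and -0.04, -0.06 and -0.00 on KO late replicates 1 to 3. Under this scaling all 6 early arrays were thus above all 6 late arrays, though WT early replicate 1 and KO late replicate 3 lay close together. KO early replicate 1 stood highest, with 83 of the 85 members above their own mean, and WT late replicate 3 lowest, with 4 above. The medians of the large and the small subunit differed by 0.032 or less on every array.

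**Figure D1:**
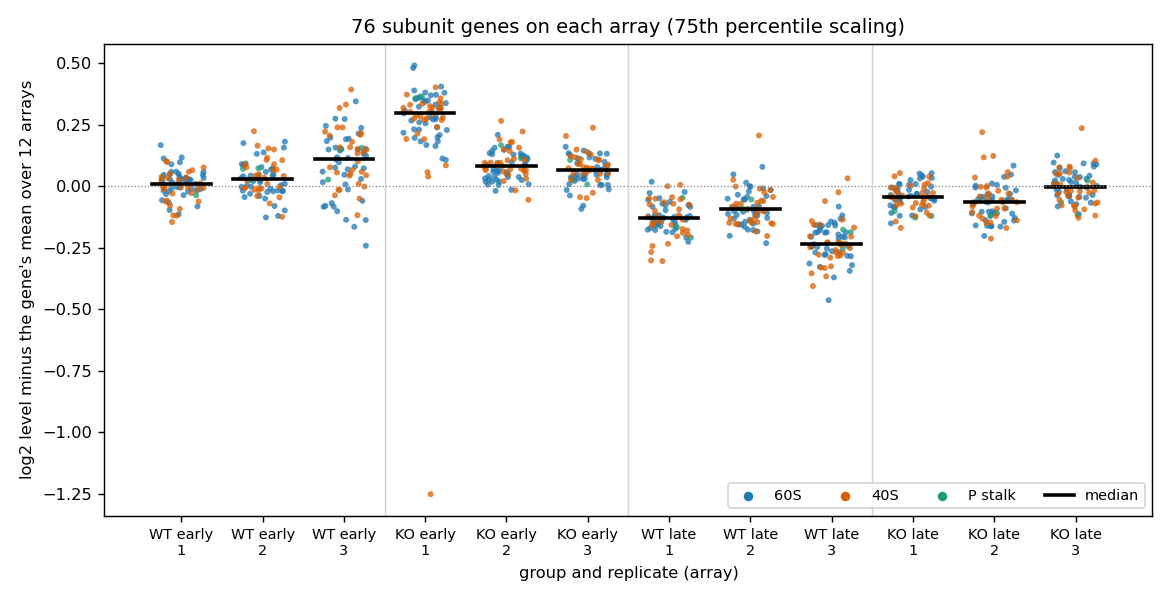
Log2 level of each of 76 subunit genes minus its own mean over 12 arrays (vertical axis), by array (horizontal axis, 3 replicates in each of 4 groups); points are genes coloured by subunit and black bars are medians. Medians lie between 0.01 and 0.30 on the early arrays and between -0.23 and -0.00 on the late arrays, and the lone point near -1.25 is Rps3 on KO early replicate 1.

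The height of these shifts rests on the scaling. The distance of the 99th from the 75th percentile of an array's signals was 6.47 to 6.57 in WT early, 6.52 to 6.70 in KO early, 6.31 to 6.38 in WT late and 6.39 to 6.45 in KO late (log2). It was longest on KO early replicate 1 and shortest on WT late replicate 3, the arrays where the members were highest and lowest. With quantile normalization over the 19507 tested genes, which gives all arrays the same distribution, the members' medians lay between -0.06 and 0.04 on the 12 arrays. The early arrays were then no longer all above the late ones. WT early replicates 2 and 3 were at -0.002 and -0.03, below KO late replicates 1 and 2 at 0.03 and 0.04. The differences given below under quantile normalization were instead normalized over all probes without an outlier spot, so they need not match these medians. Whether bright messages as a class or the labelling and hybridisation of each array set that distance was not tested. In bulk RNA, fewer cells of a type and less RNA per cell cannot be told apart.

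With passage in WT cells, the ribosomal protein genes had lower levels in late cultures, by a median log2 difference of -0.19 (0.875 of the early level), and 81 of 85 differences were negative. Under quantile normalization the median was -0.02 with 56 of 85 negative. No subunit gene passed the test. Among all 85, only Rps23rg1 was called, and it was higher, against 10.6% of all genes called (6.22% higher and 4.37% lower). The late and early values did not overlap for 54 members that were lower (63.5%, against 13.8% of all genes) and for 1 that was higher (1.18%, against 13.9%). At an unadjusted p under 0.05, 36 members were lower, against 13.4% of all genes, and Rps23rg1 was higher. The members' median within slides 1, 2 and 3 was -0.14, -0.12 and -0.30, while the median of all genes was -0.00. The summed level of the 10 fibroblast markers (linear, in units of the 75th percentile) was also lower late, at 528 to 657 in WT early and 404 to 472 in WT late, and at 563 to 629 in KO early and 487 to 541 in KO late. The groups did not overlap in either genotype. The sum of the 11 macrophage markers was 39.2 to 97.3 in WT early and 72.1 to 121 in WT late, and 45.5 to 60.004 in KO early and 29.2 to 63.8 in KO late. Their part in the passage differences was not tested.

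Among 60S genes the median was -0.18, and 42 of 42 were negative. Rpl41, the shortest ribosomal protein, had the lowest value: its log2 levels were 7.98, 7.97 and 8.28 in WT early and 7.76, 7.78 and 7.65 in WT late. The groups did not overlap, with a difference of -0.35 ± 0.10 (SE; adjusted p = 0.0582). Among 40S genes the median was -0.23, with 30 of 31 negative. Rps15a had levels of 6.79, 6.78 and 6.69 in WT early and 6.39, 6.55 and 6.32 in WT late. Every late value was below every early value, at -0.33 ± 0.10 (adjusted p = 0.0531). Rps26, which lies at the messenger RNA exit channel, had -0.32 ± 0.11 (adjusted p = 0.0842), with WT early replicate 1 inside the range of the late arrays. Rps6, the substrate of the S6 kinases, had 6.87, 6.79 and 6.95 in WT early and 6.59, 6.65 and 6.57 in WT late. Its difference was -0.27 ± 0.09 (adjusted p = 0.0755). Rpsa, the 40S protein also known as the laminin receptor, had -0.31 ± 0.12 (adjusted p = 0.133). The 3 P stalk genes, whose proteins recruit elongation factors, were at -0.21 ± 0.09 (Rplp0), -0.13 ± 0.10 (Rplp1) and -0.26 ± 0.10 (Rplp2), with no overlap between early and late values in any of them. Rpl5 and Rpl11, which with 5S ribosomal RNA form the particle that binds MDM2, were at -0.13 ± 0.10 and -0.13 ± 0.11.

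With the 50th percentile as the scale the median of all genes itself moved to -0.14 in this comparison, the members' median was -0.33, and 8 members were called lower, 7 of them 40S genes. Rpl41, Rps15a, Rps26, Rps27 and Rps6 were among these. Under this scale 1819 of all 19507 genes were called lower, beside 8 of the 85 members. Whether these shares differ was not tested. Without WT late replicate 3 the median was -0.16.

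With passage in KO cells the median log2 difference was -0.19 (0.874 of the early level), with 82 of 85 negative. Under quantile normalization it was -0.02 with 48 of 85 negative. In this comparison 3 members fell and 1 rose, which is 3.53% and 1.18% of the members, against 9% and 9.95% of all genes (18.9% called in all). Whether these shares differ was not tested. An unadjusted p under 0.05 was reached by 34 members that were lower, against 18% of all genes. Values did not overlap for 52 members that were lower (61.2%, against 29.3% of all genes) and 1 that was higher (1.18%, against 22.6%). The members' median within slides 1, 2 and 3 was -0.34, -0.16 and -0.09, and it was -0.12 without KO early replicate 1. The median of all genes was -0.05 in this comparison, with 44.24% of all genes positive.

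Rps27l, a paralog of Rps27 that is a known p53 target, fell. Its log2 levels were 6.23, 5.99 and 5.84 in KO early and 5.52, 5.43 and 5.59 in KO late. All 3 late values were below all early values, and the difference was -0.50 ± 0.10 (adjusted p = 0.00839). It kept a fall under quantile normalization (-0.29, adjusted p = 0.0184) and without KO early replicate 1 (-0.40, adjusted p = 0.0227). With the 2 Xist-positive KO late arrays left out, which leaves 1 KO late array, it was -0.43 (adjusted p = 0.24). In WT cells Rps27l had 5.89, 5.91 and 5.97 early and 5.76, 5.70 and 5.73 late, at -0.20 ± 0.10 (adjusted p = 0.225). The difference between the genotypes' passage responses was -0.31 ± 0.14 (adjusted p = 0.371).

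Rps19, a 40S protein mutated in Diamond-Blackfan anaemia, fell as well. Its levels were 6.38, 6.16 and 6.09 in KO early and 5.86, 5.84 and 5.89 in KO late. The groups were apart, with a difference of -0.35 ± 0.10 (adjusted p = 0.0302). Under quantile normalization the value was -0.17 (adjusted p = 0.0999), and without KO early replicate 1 it was -0.26 (adjusted p = 0.104). In WT its difference was -0.26 ± 0.10 (adjusted p = 0.11), so the call was in KO alone while the passage responses differed by only -0.09 ± 0.13.

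Rpl35a, a 60S protein also affected in that anaemia, was at 6.38, 6.19 and 6.23 in KO early and at 6.01, 5.99 and 6.04 in KO late. It fell by 0.25 on the log2 scale (SE 0.08, adjusted p = 0.0491). The call was lost with the replicate number as a block (adjusted p = 0.0728) and under quantile normalization, where the difference was -0.07 (adjusted p = 0.474). In WT the value was -0.22 ± 0.08 (adjusted p = 0.101).

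Rps23rg1, a retroposed copy of Rps23, was the member that rose. Its dim probe, above background on all 12 arrays, read -3.14, -2.96 and -2.74 in KO early and -2.42, -2.40 and -2.42 in KO late. The difference was 0.53 ± 0.11 (adjusted p = 0.0083), and 0.48 (adjusted p = 0.00884) under quantile normalization. In WT it read -2.87, -2.71 and -2.89 early and -2.43, -2.50 and -2.34 late, a rise of 0.40 ± 0.11 (adjusted p = 0.0406). That call was lost under quantile normalization (0.33, adjusted p = 0.0565) and in 10 of the 12 fits that left out 1 array. Rps23 itself, its source gene, had lower levels late than early in both genotypes. On the same array, Rps23rg1 minus Rps23 was higher late than early by 0.65 in WT and 0.73 in KO, with no overlap in either. By an exact two-sided permutation test each had p = 0.1, the smallest that 3 against 3 can give, and an adjusted p of 0.4 over 60 within-array comparisons chosen after the values were seen. A single factor per array cannot change this quantity, but a scaling that depends on intensity can, since one probe is dim and the other bright.

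**Figure D2:**
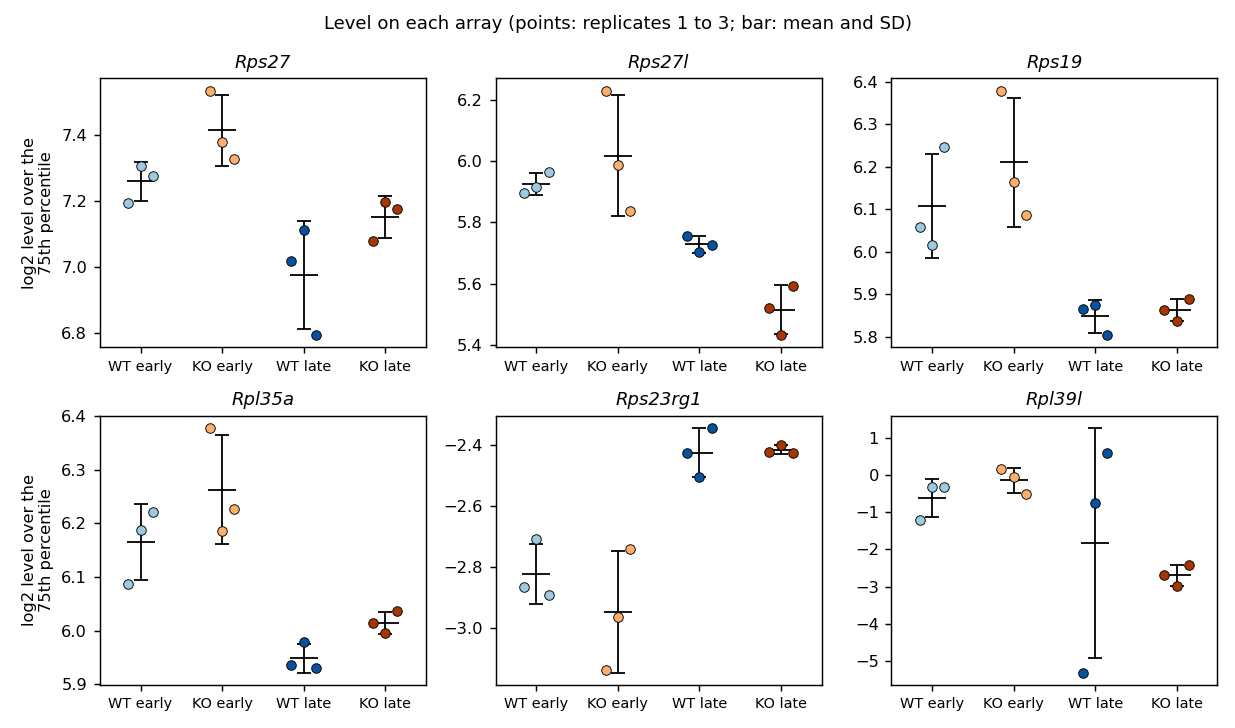
Log2 level over the 75th percentile (vertical axes, which differ between panels and do not start at 0) of 6 genes in the 4 groups (horizontal axes); points are replicates 1 to 3 from left to right and bars are the mean and SD. Rps27l, Rps19 and Rpl35a are lower in KO late than in KO early, Rps23rg1 is higher late than early in both genotypes, and Rpl39l has 1 WT late array at -5.32.

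Most subunit genes that were not called in KO were also lower late. Rps19, at -0.35, had the lowest value of the 76 subunit genes. The 60S median was -0.19, with 41 of 42 negative. The 40S median was -0.19, with 30 of 31 negative, and the exception was Rps3. The P stalk genes had -0.24 ± 0.09 (Rplp0), -0.26 ± 0.10 (Rplp1) and -0.29 ± 0.10 (Rplp2), again without overlap, with adjusted p between 0.061 and 0.0988. Rplp2 was at 8.15, 7.95 and 7.81 in KO early and at 7.67, 7.67 and 7.72 in KO late. With array weights that let the groups differ in spread, 31 members were called (30 lower), all 3 P stalk genes among them. How many of all genes that weighted fit called is not given here, so the 31 cannot be set against a background share. With the 2 Xist-positive KO late arrays left out, 0 were called. That fit holds 1 KO late array, assumed to vary like the other groups, and the differences were 0.52 for Rps23rg1, -0.43 for Rps27l, -0.32 for Rps19 and -0.23 for Rpl35a.

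Rps3, a 40S protein at the messenger RNA entry, had no negative passage difference, and 1 array stood apart. Its brighter probe read 5.52, 5.77 and 5.85 in WT early, 4.41, 5.93 and 5.90 in KO early, 5.67, 5.87 and 5.70 in WT late and 5.58, 5.89 and 5.90 in KO late. KO early replicate 1 was more than 1 unit below all other arrays on this probe. The second Rps3 probe read 1.503 on that array, its highest value, and was 1.28 and 1.17 on the other KO early arrays and 0.81, 0.80 and 0.74 on the KO late arrays. By that probe Rps3 fell with passage in KO, by 0.53 on the log2 scale (SE 0.11, adjusted p = 0.00951 over all probes).

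Among 80 members the passage difference was negative in both genotypes. The exceptions included Rps23rg1 and Rps3 in both and, in WT, Rpl7l1 and Rps19bp1. Of the 54 members lower without overlap in WT and the 52 in KO, 36 were shared, 66.7% of the first and 69.2% of the second. Of all 85 members, 63.5% were lower without overlap in WT and 61.2% in KO, beside which these shares should be read. The WT and KO arrays are different samples but lie on the same slides. Tested gene by gene, 0 members differed between the genotypes in their passage response, against 0.0871% of all genes called, and 0 had an unadjusted p under 0.05, against 13.9% of all genes. The median of this difference was 0.01 for the members and -0.02 for all genes. Within slides 1, 2 and 3 it was -0.21, -0.03 and 0.25.

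**Figure D3:**
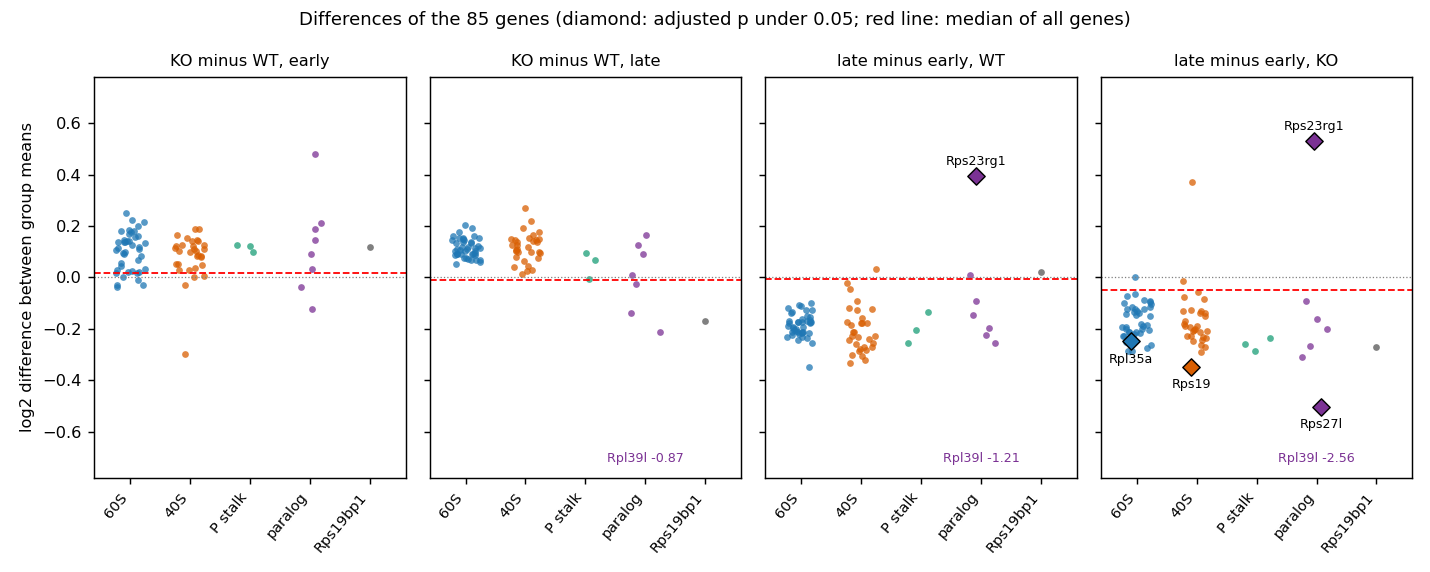
Log2 difference between group means (vertical axis) for the 85 genes by class (horizontal axis) in 4 comparisons; diamonds mark genes with an adjusted p under 0.05, the dashed line is the median of all genes, and 3 Rpl39l values outside the axis are written in. Most members lie above 0 in both genotype comparisons and below 0 in both passage comparisons, and only Rps27l, Rps19, Rpl35a and Rps23rg1 carry diamonds.

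Between KO and WT at early passage, the members' median log2 difference was 0.11 (8.07% higher in KO), with 77 of 85 positive, and 0.05 with 59 of 85 positive under quantile normalization. No member was called, against 0.0359% of all genes. Rpl21, a 60S gene, alone had an unadjusted p under 0.05 (5.99% of all genes did), at 0.20 ± 0.08 (adjusted p = 0.741). KO and WT did not overlap for 14 members, all higher in KO (16.5%, against 5.24% of all genes), Rpl35, Rps4x and Rps27 among them. Rpl35, near the exit of the peptide tunnel, read 8.23, 7.96 and 7.98 in KO early and 7.86, 7.71 and 7.95 in WT early, a difference of 0.22 ± 0.10 (adjusted p = 0.741). Rps4x, the X-linked form of RPS4, read 6.21, 5.98 and 5.97 against 5.90, 5.90 and 5.79, at 0.19 ± 0.09. The members' median was 0.29 within slide 1 and 0.05 and -0.02 within slides 2 and 3. Without KO early replicate 1 the median was 0.03, with 56 of 85 positive.

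Between KO and WT at late passage, the median was 0.11 (7.6% higher in KO), with 79 of 85 positive, among them 42 of 42 60S and 31 of 31 40S genes. Under quantile normalization it was 0.05 with 77 of 85 positive, where the median of all genes was 0.04. No member was called, against 7.83% of all genes, and 2 had an unadjusted p under 0.05, against 24.9% of all genes. The groups did not overlap for 31 members that were higher (36.5%, against 19% of all genes) and 2 that were lower (2.35%, against 20.3%). The 2 with an unadjusted p were Rps15a at 0.27 ± 0.10 (adjusted p = 0.11) and Rps6 at 0.19 ± 0.09 (adjusted p = 0.2). Rps15a read 6.65, 6.63 and 6.79 in KO late, above the 6.39, 6.55 and 6.32 of WT late. The median within slides 1, 2 and 3 was 0.08, 0.02 and 0.21, and it was 0.07 without WT late replicate 3. In the same arrays the macrophage marker sum was lower in KO late than in WT late and the fibroblast sum higher, both without overlap, with the values given above, and their part in the difference was not tested.

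The median of the P stalk genes at late passage was 0.07, beside 0.11 for 60S and 0.12 for 40S genes, with Rplp0 at 0.10 ± 0.09, Rplp2 at 0.07 ± 0.10 and Rplp1 at -0.00 ± 0.10. Rpl5 and Rpl11 were at 0.15 ± 0.10 and 0.15 ± 0.11. Both genes lower without overlap were outside the subunits: Rps27l at -0.21 ± 0.10 (adjusted p = 0.221) and Rps19bp1 at -0.17 ± 0.10 (adjusted p = 0.324). Rps27 was at 0.18 ± 0.10 in this comparison. Rps27l minus Rps27 on the same array averaged -1.25 ± 0.17 (SD, n = 3) in WT late and -1.63 ± 0.11 in KO late, with no overlap, by an exact two-sided permutation test p = 0.1, the smallest that 3 against 3 can give. Its adjusted p over the same 60 comparisons was 0.4. At early passage the same quantity was -1.33 ± 0.05 in WT and -1.39 ± 0.09 in KO.

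**Figure D4:**
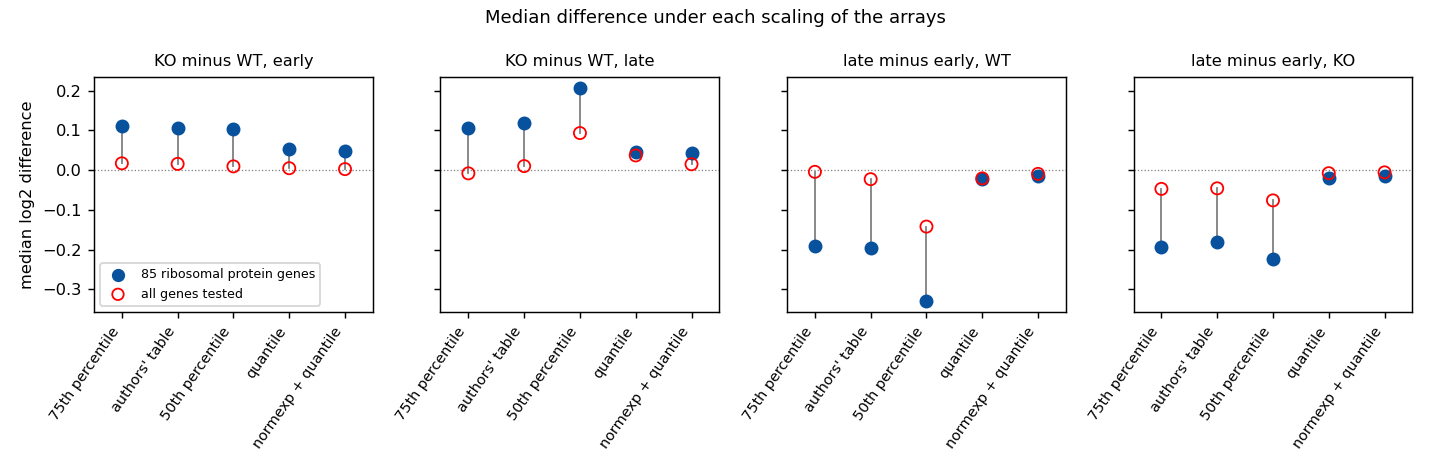
Median log2 difference (vertical axis) of the 85 ribosomal protein genes (filled) and of all genes tested (open) under 5 scalings of the arrays (horizontal axis) in 4 comparisons. The 2 sets are apart under percentile scaling, as at -0.19 against -0.00 for passage in WT, and lie closer together under quantile normalization, at -0.02 for both in that comparison but at 0.05 against 0.00 for KO against WT at early passage.

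The other paralogs differed among themselves. Rpl22l1, the paralog of Rpl22, followed the subunits, at -0.22 ± 0.10 with passage in WT and -0.27 ± 0.10 in KO (adjusted p = 0.175 and 0.0881). Rpl36al, the autosomal copy of Rpl36a, had -0.09 ± 0.11 in WT and -0.31 ± 0.11 in KO (adjusted p = 0.633 and 0.0839). Rpl7l1, a nucleolar relative of Rpl7, had 0.01 ± 0.09 and -0.16 ± 0.09. Rpl32l and Rpl37rt, copies named after Rpl32 and Rpl37, had bright probes and passage differences of -0.26 ± 0.08 and -0.14 ± 0.09 in WT. Probes cannot be assumed to tell such copies from their source genes, and Rpl37 has no probe here. Rps19bp1 read 2.36, 2.14 and 2.05 in KO early and 1.90, 1.97 and 1.88 in KO late, apart but uncalled at -0.27 ± 0.10 (adjusted p = 0.0844).

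Rpl39l, a paralog of Rpl39 best known from the testis, was the most variable member. Its levels were -1.21, -0.32 and -0.32 in WT early, 0.15, -0.05 and -0.50 in KO early, -5.32, -0.75 and 0.59 in WT late and -2.69, -2.98 and -2.42 in KO late. The KO late arrays were low and close together, while the WT late arrays spanned 5.9 log2 units. The passage difference in KO was -2.56 ± 1.15 (adjusted p = 0.146). Without WT late replicate 1 it had the same size with adjusted p = 0.00255. KO against WT at late passage was -0.87 (adjusted p = 0.692) and rested on single WT late arrays. It was -2.62 (adjusted p = 0.0109) without replicate 1, -0.33 (adjusted p = 0.916) without replicate 2 and 0.34 (adjusted p = 0.891) without replicate 3. Fitted on the KO arrays alone, the passage difference in KO had adjusted p = 0.00171. Rpl39 itself was at -0.18 ± 0.12 with passage in KO.

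Several probes of 1 gene did not always give the same sign. Of 51 members with more than 1 kept probe, the probes took both signs in 10 (KO against WT, early), 12 (KO against WT, late), 10 (passage in WT) and 6 (passage in KO) genes. The 86 probes that do not stand for their gene had medians close to the main ones, with -0.17 for passage in both genotypes. Among all 171 probes 8 were called lower and 2 higher with passage in KO, and 0 lower and 2 higher with passage in WT. For KO against WT, 1 probe was called higher and 0 lower at late passage, and 0 were called at early passage. The share of all probes called is not given here. Those that fell in KO included 2 of Rpl13a at -0.42 ± 0.11 and -0.40 ± 0.10. Another was 1 of Rpl14 at -0.49 ± 0.11, whose brighter probe was at -0.25 ± 0.11. Rps15a had another, dim probe that was not well above background on any early array and was so on all 6 late arrays. It was at least 1.7-fold brighter late than early in WT and at least 1.57-fold in KO, measured against the lowest signal well above background, while both bright Rps15a probes were lower or overlapping late. That dim probe passed the filter only through the late groups, where it is brighter, so its rise is not independent of the filter. For passage in KO, the mean over all kept probes, which includes it, turned the Rps15a difference from -0.20 to 0.40. That value is therefore no evidence of a rise.

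Genes around the ribosome were taken from lists. Of 18 translation factors and related genes with TOP messages, 0 were called in any comparison. Of all genes, 10.6% were called with passage in WT and 18.9% in KO. For KO against WT, 0.0359% were called at early and 7.83% at late passage. Whether these shares differ was not tested. Their median passage difference was -0.08 in WT and -0.14 in KO, and 4 and 5 had an unadjusted p under 0.05, all lower, where 13.4% and 18% of all genes were so. For KO against WT, 1 had so at early and 2 at late passage, where 5.99% and 24.9% of all genes had. Tpt1, a translationally controlled growth protein, had -0.30 ± 0.09 in WT (adjusted p = 0.0583), and Eef1b2, an elongation factor subunit, -0.25 ± 0.09 in KO (adjusted p = 0.0854).

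The 57 tested genes of ribosome biogenesis had a median of 0.10 with passage in WT and 0.02 in KO, beside -0.19 in both for the members, with 37 and 30 of 57 positive. In WT 2 rose, where 6.22% of all genes did, namely Sbds (0.42 ± 0.11), which readies the 60S subunit for translation, and Heatr3 (0.38 ± 0.10), which carries RPL5 into the nucleus. In KO 3 rose and 1 fell, where 9.95% and 9% of all genes did: Rrp1b (0.51 ± 0.12), Heatr3 (0.42 ± 0.10) and Wdr75 (0.29 ± 0.08) rose, and Utp20 (-0.33 ± 0.10), of the small-subunit processome, fell. Rrp1b and Wdr75 were also higher in KO than in WT at late passage, by 0.55 ± 0.12 and 0.35 ± 0.08. In that comparison 2 of the 57 genes were called higher, where 675 of all 19507 genes were. Whether these shares differ was not tested.

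Of 17 upstream regulators, Myc, a transcription factor that drives ribosome production, rose with passage in both genotypes, by 0.95 ± 0.10 in WT (adjusted p = 0.000975) and 0.94 ± 0.10 in KO (adjusted p = 0.000454). Mycn rose in WT, by 1.06 ± 0.26, and was lower in KO than in WT at late passage, at -1.34 ± 0.26 (adjusted p = 0.0178). Mtor, Larp1 and the other regulators were not called in any comparison. Of the 17, 2 were called higher with passage in WT and 1 in KO, where 6.22% and 9.95% of all genes were. At late passage 1 was called lower in KO than in WT, where 853 of all 19507 genes were. Whether these shares differ was not tested. Of the 5 tested genes around p53, Cdkn1a, the p53-induced inhibitor of the cell cycle, was lower in KO than in WT at late passage (-0.66 ± 0.14) and fell with passage in KO (-0.77 ± 0.14). Mdm2, itself a p53 target, had -0.63 ± 0.13 and -0.48 ± 0.13 in these comparisons, both called. Rps27l, the member of the p53 target group, fell in the second of them and was at -0.21, not called (adjusted p = 0.221), in the first. In each of these 2 comparisons 2 of the 5 genes around p53 were called lower and 2 had positive differences. Of all 19507 genes, 853 were called lower in the first and 1755 in the second. Whether p53 bears on the Rps27l differences was not tested.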

How the data were processed

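RNA (100 ng) was labelled with Cy3 and hybridised to one-colour Agilent mouse arrays, per the labels' protocols. Scanner files were made by the authors with Agilent Feature Extraction, version 11.5.1.1 per the file headers and 10.7.3.1 per the submitters' processing notes. The values used are the deposited intensity gProcessedSignal, background-subtracted by that software per the file headers. The authors' deposited value table, on a log2 scale by comparison with the intensities, with its centring not stated, was an alternative.

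Here, log2 intensity minus each array's 75th percentile over all spots that are not controls was taken, repeated spots were averaged and outlier spots left out. A probe was kept if it was well above background on every array of 1 group or more (24359 of 39429), and the brightest stood for its gene. Symbols came from matching probe accessions to RefSeq; Rps4l, matched only through a non-coding accession, is no member. limma 3.58.1 (R 4.3.3) fitted 4 group means over 12 arrays, with Benjamini-Hochberg adjustment over 19507 genes and calls at an adjusted p under 0.05; ± is the SE of a difference. The arrays' number limits the precision, and p-values measure the spread between cultures. The fit was tested on simulated data.

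The replicate number is also the slide. Deviations of WT early and WT late arrays of 1 number correlated at 0.279, 0.244 and 0.141. Other pairings did not reach 0.1 in every pair. A shared slide and a shared source of the cultures cannot be told apart here. The main fit used no pairing and no block, so its p-values for passage do not account for either. Alternatives were other scalings, normexp (offset 50, on the median foreground signal, since the mean was not used here), other filters and probe rules, the replicate block, array weights, fits of the compared groups alone and leaving out arrays; quantile normalization with the block was added after seeing the data. Named genes were members called, the 3 highest and 3 lowest in each comparison and a fixed list by role. Other genes were named as called members of their list; Rps23, Rpl21, Rpl13a, Tpt1, Eef1b2, Rpl32l and Rpl37rt were named after their values were seen. Members, lists and tests were chosen with earlier results of these data known, and Rpl37rt and Rps23rg1 were put with the paralogs after the array was seen. Probe and protein sequences and the liver samples named in the design text were not analysed here. Results for some genes are not reported here.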

Additional observations from a re-analysis of the deposited data

How the results depend on the processing

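Members called with passage in WT (1 in the main setting) numbered 0 under quantile normalization, with or without the replicate block, normexp with quantile normalization, no filter on dim probes, array weights, the fit of the compared groups alone and without the 2 Xist-positive KO late arrays. They numbered 2 in the authors' deposited table and with probes above background on all 12 arrays, 8 with the 50th percentile and 0 to 2 with each array left out. For passage in KO (4 in the main setting) they numbered 2 under quantile normalization, with or without the replicate block, the 50th percentile and no filter on dim probes, 31 with array weights, 7 in the fit of the compared groups alone, 0 without the 2 Xist-positive KO late arrays and 2 to 8 with each array left out. For KO against WT at late passage, 0 became 1 (Rpl39l, lower) without WT late replicate 1, and was 0 without any other single array. For passage in WT, the count was 0 without WT late replicates 1, 2 or 3, WT early replicates 2 or 3, KO early replicate 2 or any KO late array. For passage in KO, 8 came without WT early replicate 3 or KO early replicate 3, and 2 without KO early replicates 1 or 2 or any KO late array. The count stayed at 0 in every alternative for KO against WT at early passage and for the difference of the passage responses. How many of all genes were called with array weights is not given here, so the 31 members have no background share beside them.

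Quantile normalization with the replicate block was chosen after seeing the data. The members' median for passage in WT was -0.0229 under quantile normalization, with or without the replicate block, -0.0154 with normexp and -0.33 with the 50th percentile. For passage in KO it was -0.0189 under quantile normalization, with or without the block, and -0.0142 with normexp. For KO against WT at late passage it was 0.207 with the 50th percentile, where the median of all genes was 0.0932. The Rps15a difference for passage in KO turned from -0.20 to 0.403 with the mean of all kept probes. Of these probes, 1 was not well above background on any early array and passed the filter only through the late groups, so this turn is no evidence of a rise. Of 4046 refitted values of the 34 named genes, 3754 kept direction and side of the threshold, 50 lost and 28 gained a call and 213 changed sign uncalled, 98 of them under quantile normalization with or without the block or normexp. Of the calls, Rps27l and Rps23rg1 in KO were lost only without the 2 Xist-positive KO late arrays, a fit with 1 KO late array where they were -0.43 and 0.52. Rps19 was lost in 10, Rpl35a in 20 and Rps23rg1 in WT in 18 of 24 alternatives. The replicate block changed no call other than that of Rpl35a. Among all genes at late passage, KO against WT gave 675 higher and 853 lower calls, but 1003 and 787 under quantile normalization, 1000 and 791 with normexp and 1171 and 499 with the 50th percentile. For passage in WT, 1213 higher and 852 lower became 843 and 1819 with the 50th percentile. The causes were not tested.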
